A study of Mus musculus with 12 samples.

Results

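Slc51a and Slc51b are the 2 genes of the organic solute transporter, an exporter of bile acids and steroid conjugates that sits on the basolateral side of epithelial cells. They were found by Entrez Gene ID, 106407 for Slc51a and 330962 for Slc51b, and are 2 of the 24532 gene identifiers in the deposited tables and 2 of the 14488 genes with enough signal to be tested. Total RNA of mouse kidney was sequenced in 12 libraries, 3 in each of 4 groups. Wild-type mice carried the strain label C57BL/6, and FXR knockout mice the label Nr1h4tm1Gonz/J, a targeted allele of the farnesoid X receptor gene Nr1h4. Each genotype received vehicle or GW4064, a synthetic FXR agonist; the time given for GW4064 is 6 h, the vehicle libraries carry no time, and the design text has the mice fasted overnight. The sources used here give no age, sex or dose, and do not say how the wild-type and knockout mice are related.

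The transporter works only as a pair. Slc51a encodes the alpha subunit, which spans the membrane several times, and Slc51b encodes the smaller, single-span beta subunit, which the alpha subunit needs to reach the plasma membrane. In the ileum the pair passes bile acids taken up from the gut lumen on to portal blood, and both genes are textbook targets of FXR, the nuclear receptor for bile acids. In the kidney the proximal tubule reclaims filtered bile acids through the apical carrier Slc10a2, and the Slc51 pair is the basolateral exit.

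The genes lie on different chromosomes. In the deposited tables (mm10) Slc51a spans chromosome 16, 32475578 to 32487879, and Slc51b spans chromosome 9, 65412753 to 65422773, both on the minus strand. The GENCODE vM21 model of Slc51a has 9 exons and 1020 coding bases, and that of Slc51b has 4 exons and 384 coding bases. FXR is known to bind with its partner RXR to inverted repeats of a 6-base half-site around 1 spacer base, so the 250 bases before each RefSeq start (GRCm38.p6) were searched on both strands for AGGTCANTGACCT, GGGTCANTGACCC, AGGTCANTGACCC and GGGTCANTGACCT. The first sequence printed is the whole window of Slc51a, chr16:32487880-32488129. The second is the stretch of the Slc51b window that holds its best match, chr9:65422944-65423023. Both are written 5′ to 3′ on the gene's strand. In Slc51a the capitals mark 3 copies of CACGTG, a palindrome chosen after the sequence was seen, and TGACCT, which is the half-site AGGTCA on the other strand. In Slc51b they mark the half-site AGGTCA and the best match to the repeat.
Slc51a: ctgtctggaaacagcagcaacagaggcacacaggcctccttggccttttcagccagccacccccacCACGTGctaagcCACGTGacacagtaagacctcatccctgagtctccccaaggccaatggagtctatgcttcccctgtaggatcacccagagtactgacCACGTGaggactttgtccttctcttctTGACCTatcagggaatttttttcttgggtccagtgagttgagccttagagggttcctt
Slc51b: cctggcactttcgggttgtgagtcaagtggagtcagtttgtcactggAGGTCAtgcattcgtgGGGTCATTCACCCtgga

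The promoters differed in how near they came to the repeat. The best match of Slc51b, GGGTCATTCACCC, lay 187 to 175 bases before the RefSeq start and differed from GGGTCANTGACCC by 1 substitution, G9C, counted from 1 at the first base of the spelled motif. Of 32851 RefSeq promoter windows of the same length, 0.219% held a match with 1 mismatch or fewer among the 12 fixed bases. The half-site AGGTCA of Slc51b lay 203 to 198 bases before the start. The best match of Slc51a had 3 substitutions, T4A, A6T and A10T against AGGTCANTGACCT, a level that 25.1% of windows reached. Its half-site lay 58 to 53 bases before the start, and 23.8% of windows held at least 1 AGGTCA or GGGTCA. The 3 copies of CACGTG in Slc51a lay 184 to 179, 172 to 167 and 85 to 80 bases before the start. Of all windows 0.0609% held 3 or more, but CACGTG was chosen from this sequence, so that share is only a description. GENCODE starts the Slc51b transcript 182 bases further upstream, so 12 of the printed bases lie inside that model, while the starts of Slc51a coincide. The best match of Slc51b, 187 to 175 bases before the RefSeq start, therefore spans the GENCODE start. These matches describe letters in a window; binding was not measured in these samples.

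Libraries held 2.86 to 4.27 mapped gigabases, by the ratio of deposited coverage to FPKM, and the mean read coverage of the 2 genes ran from 35.1 to 669 reads per base. Pearson's r of log2(TPM + 0.5) ran from 0.993 to 0.995 within groups and from 0.989 to 0.994 between them, and 0 pairs of libraries held identical values. Nr1h4 itself measured 189 to 267 TPM (a level scaled for gene length and library total) in the 6 wild-type libraries and 105 to 134 TPM in the 6 knockout libraries. A value for the whole gene cannot tell intact from truncated transcripts. No label ties a library to an animal of its own, and p-values therefore reflect library-to-library spread, which may be technical.

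In wild-type kidney both subunits rose steeply with the agonist. Slc51a measured 48.1, 41.9 and 36.4 TPM on vehicle and 514, 427 and 431 TPM with GW4064. The lowest agonist library stood far above the highest vehicle library, and the means were 42.1 ± 5.86 and 457 ± 49.2 TPM (SD, n = 3). The log2 change was 3.43 ± 0.12 (SE), a 10.8-fold rise with a 95% interval of 3.16 to 3.70 on the log2 scale (limma, adjusted p = 9.2e-08).

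Slc51b measured 56.9, 45.9 and 44.9 TPM on vehicle and 382, 349.5 and 303 TPM with GW4064. Again the groups did not overlap, with means of 49.2 ± 6.63 and 345 ± 39.4 TPM (SD, n = 3). The log2 change was 2.80 ± 0.13 (SE), a 6.95-fold rise with a 95% interval of 2.52 to 3.08 (limma, adjusted p = 6.5e-07). Both members were thus called higher, in a comparison in which 2.48% of the genes tested were called higher and 4.8% in either direction. Groups that do not overlap were common, since 10.1% of genes had all agonist libraries above all vehicle libraries. By p-value Slc51a ranked 1 and Slc51b ranked 2 among the 14488 genes. By the size of the rise Slc51a ranked 4 and Slc51b ranked 6. Of the genes above Slc51a, Tm4sf4 and Zdhhc19 are described below, and the hemoglobin gene Hbb-b1 was not called (6.51 ± 2.79, limma, adjusted p = 0.225).

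**Figure D1:**
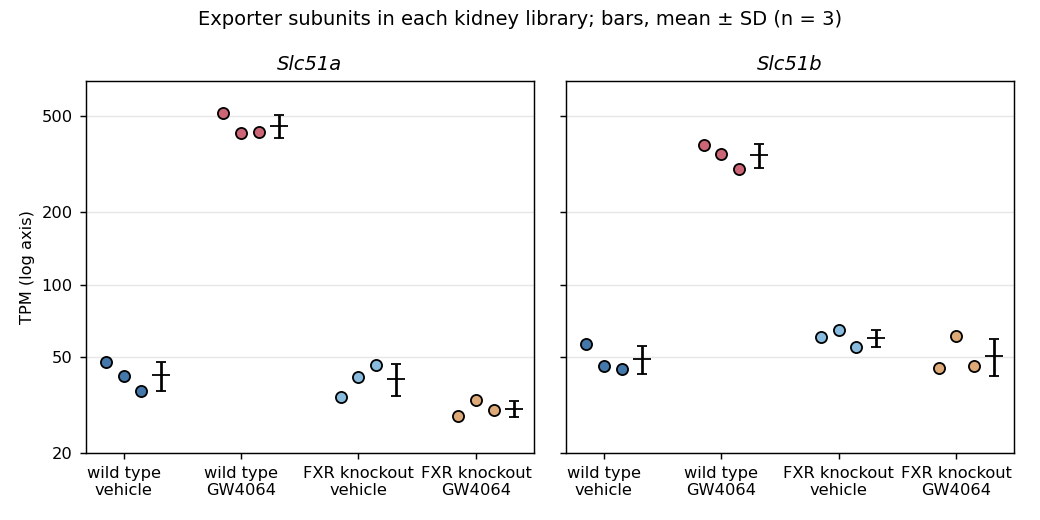
TPM of Slc51a and Slc51b on a log axis, 1 point per library, with the 3 libraries of each group side by side and a bar for the group mean ± SD. The wild-type GW4064 libraries sit between 427 and 514 TPM for Slc51a and between 303 and 382 TPM for Slc51b, and the libraries of the other groups lie between 28.6 and 65.1 TPM.

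With GW4064 in wild type both genes moved up the expressed range to near its top. Each library held 16693 to 17186 genes above 0 TPM. Ranked by TPM within each library, Slc51a stood at 3626 to 4733 on vehicle and at 267 to 338 with GW4064 in wild type. Slc51b went from 3053 to 3909 on vehicle to 391 to 499. In the knockout the ranks were 3602 to 4707 on vehicle and 4936 to 5502 with GW4064 for Slc51a, and at 2494 to 3043 and 2701 to 3666 for Slc51b.

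In FXR knockout kidney neither subunit rose. Slc51a measured 34.3, 41.5 and 46.5 TPM on vehicle and 28.6, 33.2 and 30.1 TPM with GW4064. Every agonist library was below every vehicle library, by a small margin. The means were 40.8 ± 6.12 and 30.7 ± 2.31 TPM (SD, n = 3), and the log2 difference of -0.40 ± 0.12 (SE) did not pass the test (limma, adjusted p = 0.278, unadjusted p = 0.00734, 95% interval -0.67 to -0.13). Slc51b measured 60.6, 65.1 and 55.3 TPM on vehicle and 45.4, 61.3 and 46.0 TPM with GW4064. Here the groups overlapped, through the agonist library at 61.3 TPM. The means were 60.3 ± 4.91 and 50.9 ± 8.98 TPM, with a log2 difference of -0.25 ± 0.13 (limma, adjusted p = 0.524, unadjusted p = 0.0725, 95% interval -0.54 to 0.03).

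So 0 of the 2 members were called for GW4064 in the knockout and 1 of 2 had an unadjusted p under 0.05, in a comparison in which 0.0138% of genes were called (2 of 14488) and 10.8% had an unadjusted p under 0.05 (1560). Genes whose agonist libraries all lay below their vehicle libraries made up 5.07% of those tested. The upper bounds of both intervals, -0.13 and 0.03, lie below the lower bounds of 3.16 and 2.52 in wild type.

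The difference between the genotypes in response was tested directly. The response of Slc51a was lower in the knockout by -3.83 ± 0.17 on the log2 scale (limma, interaction term, adjusted p = 1.3e-06, 95% interval -4.21 to -3.45). For Slc51b it was lower by -3.05 ± 0.18 (adjusted p = 1.0e-05, 95% interval -3.45 to -2.65). Among all genes 1.72% were called in this direction, 1.47% in the other and 3.19% in either, and by p-value Slc51a again ranked 1 and Slc51b ranked 2.

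**Figure D2:**
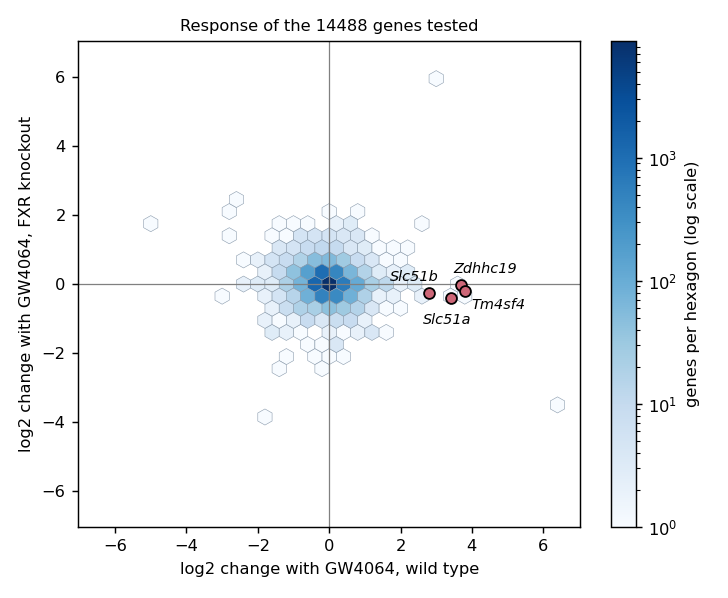
Log2 change with GW4064 in wild type (x axis) against that in FXR knockout (y axis) for the 14488 genes tested, as hexagons shaded by the number of genes on a log scale, with 4 genes marked as points. Slc51a (3.43, -0.40) and Slc51b (2.80, -0.25) lie to the right of the cloud and just below the horizontal line, beside Zdhhc19 and Tm4sf4.

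Without the agonist the genotypes were close. For Slc51a the vehicle groups had means of 42.1 and 40.8 TPM in wild type and knockout and overlapped, and the log2 difference of -0.05 ± 0.12 was not called (limma, adjusted p = 0.822, 95% interval -0.32 to 0.22). Its sign is not settled, since it was 0.04 after median-of-ratios scaling, 0.02 after quantile scaling, 0.05 without wild-type vehicle replicate 1 and 0.07 without knockout vehicle replicate 1. Slc51b was at 49.2 TPM in wild type and 60.3 TPM in the knockout. The 2 groups overlapped, since wild-type replicate 1 at 56.9 TPM exceeded knockout replicate 3 at 55.3 TPM. The log2 difference of 0.30 ± 0.13 did not pass the test (limma, adjusted p = 0.146, unadjusted p = 0.0413, 95% interval 0.01 to 0.58). That made 0 of 2 members called, and 1 of 2 at an unadjusted p under 0.05, where 12.9% of genes were called and 30.5% had an unadjusted p under 0.05.

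Under GW4064 the genotypes were far apart. Slc51a was 14.7-fold lower in the knockout (log2 difference -3.87 ± 0.12, limma, adjusted p = 1.0e-08), and Slc51b was 6.75-fold lower (-2.76 ± 0.13, adjusted p = 1.9e-07). Both were called lower, against 11.4% of genes called lower and 18.5% in either direction. The 4 comparisons share libraries, so they are different views of the same 12 values.

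In the order of group means Slc51a ran from wild type with GW4064 at 457 TPM through wild type on vehicle at 42.1 TPM and knockout on vehicle at 40.8 TPM to knockout with GW4064 at 30.7 TPM. The middle neighbours overlapped, and the step between the knockout groups was not called. Slc51b ran from 345 TPM in wild type with GW4064 through 60.3 TPM in knockout on vehicle and 50.9 TPM in knockout with GW4064 to 49.2 TPM in wild type on vehicle. The lower groups of Slc51b could not be put in order, since the neighbours among them overlapped. In bulk kidney, fewer cells of a type and less RNA per cell cannot be told apart, so each level is an average over the organ.

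The balance of the subunits differed between groups. The ratio of Slc51a to Slc51b TPM was 0.845, 0.913 and 0.810 in wild type on vehicle, and 1.35, 1.22 and 1.42 with GW4064. In the knockout it was 0.566, 0.638 and 0.841 on vehicle, and 0.631, 0.542 and 0.655 with GW4064. The wild-type agonist libraries were the only ones above 1, and the vehicle groups overlapped. The group means were 0.856 ± 0.0524, 1.33 ± 0.101, 0.682 ± 0.143 and 0.609 ± 0.0599 (SD, n = 3), in the same order. TPM divides by a gene length that the tables do not state, so the change in the ratio between groups is better defined than its absolute value.

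Over the 4 groups the log2 ratio differed beyond the spread between libraries (exact permutation test over 369600 assignments, two-sided p = 0.00143). Between pairs of groups the smallest two-sided p that an exact permutation of 3 against 3 allows is 0.1. With GW4064 the log2 ratio was higher by 0.63 ± 0.15 (SE) in wild type, where the groups did not overlap (exact p = 0.1, adjusted over 4 pairs 0.2). In the knockout the difference with GW4064 was -0.15 ± 0.15 (exact p = 0.5, adjusted 0.5), and without knockout vehicle replicate 3 it was 0.01. Between the genotypes the log2 ratio was lower in the knockout by -0.35 ± 0.15 on vehicle (exact p = 0.2, adjusted 0.267) and by -1.13 ± 0.15 under GW4064 (exact p = 0.1, adjusted 0.2). The response of the ratio to GW4064 differed between the genotypes by -0.78 ± 0.21, a value with no test.

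**Figure D3:**
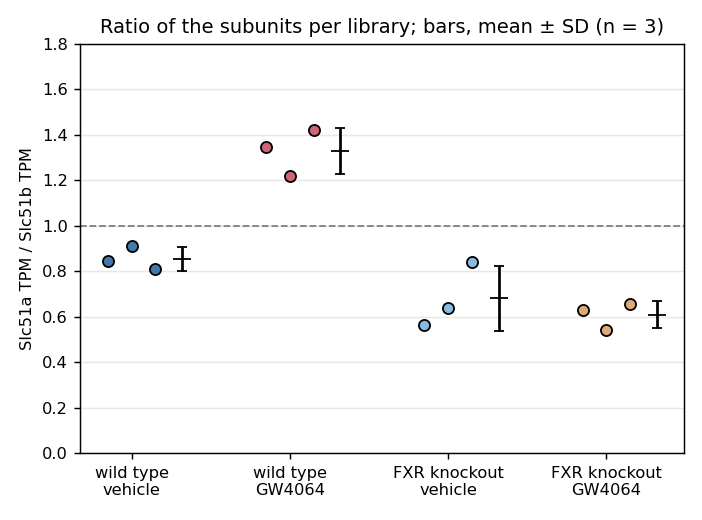
Ratio of Slc51a to Slc51b TPM in each library, by group, with bars for the group mean ± SD and a dashed line at 1. The wild-type GW4064 libraries lie at 1.22 to 1.42, and the other libraries lie between 0.542 and 0.913.

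Apart from the agonist response, the subunits showed no relation across libraries that passed a test. The wild-type GW4064 libraries form a cluster of their own, so no pooled correlation was taken. Over the other 9 libraries Pearson's r of log2 TPM was 0.358 (exact permutation p = 0.333) and Spearman's rho was 0.183 (exact permutation p = 0.644). Without the libraries farthest from the median of Slc51a, knockout vehicle replicate 3 and wild-type vehicle replicate 1, r was 0.298 over 7 libraries. As deviations from the group means over all 12 libraries, r was 0.513 (exact permutation within groups, p = 0.104) and rho was 0.503 (p = 0.091). The 4 p-values are given unadjusted, and each is above 0.05.

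The genes around each subunit were examined by the deposited coordinates, as the 3 nearest tested genes on each side. Around Slc51b none of the 6 neighbours was called for GW4064 in wild type, where 4.8% of genes were (limma, adjusted p from 0.0541 for Plekho2 to 0.935 for Ubap1l). Rasl12 runs on the opposite strand and overlaps Slc51b by 2101 bases. It measured 10.4 ± 0.742 and 9.46 ± 1.13 TPM in wild type on vehicle and with GW4064, with a log2 difference of -0.14 ± 0.10. The library kit keeps strand, per the labels, but the sources used here do not say whether counting used it. In the same agonist libraries Slc51b was at 303 TPM or more.

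Around Slc51a the nearest gene, Pcyt1a, which encodes a rate-limiting enzyme of phosphatidylcholine synthesis, ends 513 bases away on the opposite strand. It measured 75.7 ± 5.29 and 67.0 ± 3.72 TPM in wild type on vehicle and with GW4064 (log2 difference -0.17 ± 0.06, limma, adjusted p = 0.154). A promoter of Pcyt1a held a repeat with 1 mismatch, as Slc51b does, and the gene was not called. On the other side Zdhhc19, a palmitoyltransferase gene, starts 8402 bases upstream of Slc51a and runs the other way (chromosome 16, 32496281 to 32507214, plus strand).

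Zdhhc19 was near the limit of detection outside the wild-type agonist group. It measured 0.135, 0 and 0 TPM in wild type on vehicle and 7.57, 6.09 and 5.87 TPM with GW4064. In the knockout it measured 0.248, 0.137 and 0.185 TPM on vehicle and 0.371, 0.190 and 0 TPM with GW4064. Its log2(TPM + 0.5) rose by 3.69 ± 0.25 in wild type (limma, adjusted p = 9.0e-06), with -0.04 ± 0.25 in the knockout (adjusted p = 0.975) and a difference in response of -3.73 ± 0.35 (adjusted p = 2.98e-04). The gene passed the filter only through the wild-type GW4064 libraries and so had to differ, and the size of the rise ran from 2.59 to 5.63 with other pseudocounts and settings. The next gene on that side, Tfrc, the transferrin receptor, had a smaller rise of 0.46 ± 0.11 (adjusted p = 0.0297). Leaving out vehicle replicate 2 or 3 or GW4064 replicate 1 or 3 of wild type ended the Tfrc call (adjusted p up to 0.118). In the knockout Tfrc differed by 0.25 ± 0.11 with GW4064 (limma, adjusted p = 0.425). Its response did not differ between the genotypes by the test (-0.21 ± 0.15, adjusted p = 0.479). On vehicle Tfrc was called lower in the knockout (-0.57 ± 0.11, adjusted p = 0.00633).

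**Figure D4:**
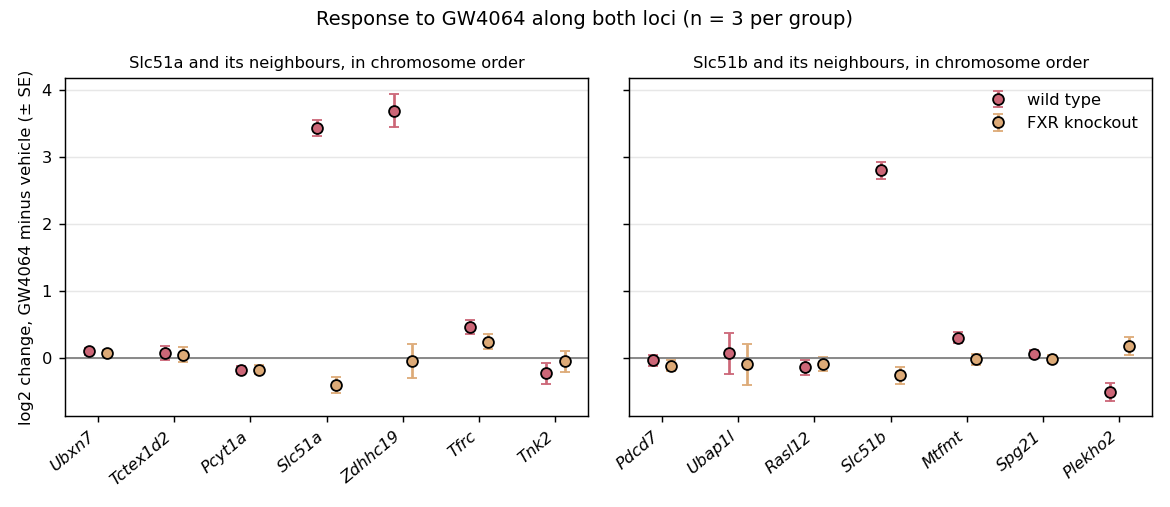
Log2 change with GW4064 (y axis, ± SE, n = 3 per group) of each subunit and its neighbours in chromosome order, for wild type and FXR knockout. In wild type Slc51a (3.43), Zdhhc19 (3.69) and Slc51b (2.80) stand above the other neighbours, which lie between -0.50 and 0.46.

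Genes with the most similar pattern were found by Pearson's r, over the 12 libraries, between each gene's log2(TPM + 0.5) and the mean of the pair, among 10979 genes with a mean of at least 5 TPM. The first 10 were Clic4 (r = 0.988), Dgkd (0.984), Ncbp1 (0.983), Tstd2 (0.982), Tlcd4 (0.981), Tm4sf4 (0.977), Crls1 (0.977), Mkln1 (0.977), B4galt5 (0.976) and Kif20b (0.975). These values describe a step in 1 group of 3 libraries and carry no test, and the 11th gene had the same r of 0.975.

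The genes most alike in pattern differed widely from the pair in the size of the step. Tm4sf4, a membrane protein of the 4-span L6 family, went from 1.37 ± 0.339 to 26.1 ± 8.55 TPM in wild type, a log2 change of 3.80 ± 0.31. Tstd2 went from 26.2 ± 3.08 to 110 ± 14.1 TPM (2.05 ± 0.10), and B4galt5, a galactosyltransferase gene of glycolipid synthesis, from 33.9 ± 0.933 to 123 ± 7.31 TPM (1.85 ± 0.10). Dgkd, a diacylglycerol kinase gene, changed by 1.28 ± 0.08, and Crls1, the cardiolipin synthase gene, by 0.99 ± 0.08. At the low end Mkln1 changed by 0.32 ± 0.04, from 76.4 ± 0.801 to 95.6 ± 1.75 TPM. In the knockout their log2 differences with GW4064 ran from -0.54 (B4galt5) to 0.12 (Tlcd4); genes chosen for a step in wild type with GW4064 had to lack one there, so these values are a description.

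Like Slc51a and Zdhhc19, a pair among these genes sits back to back: Tstd2 (chromosome 4, 46114746 to 46138475, minus strand) and Ncbp1 (46138511 to 46172402, plus strand) start 36 bases apart. Tstd2 changed by 2.05 and Ncbp1, a nuclear cap-binding protein gene, by 0.89 ± 0.06 in wild type. In the 250 bases before their RefSeq starts the best repeats of the 10 genes had 3 to 5 mismatches, against 1 in Slc51b and 3 in Slc51a.

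**Figure D5:**
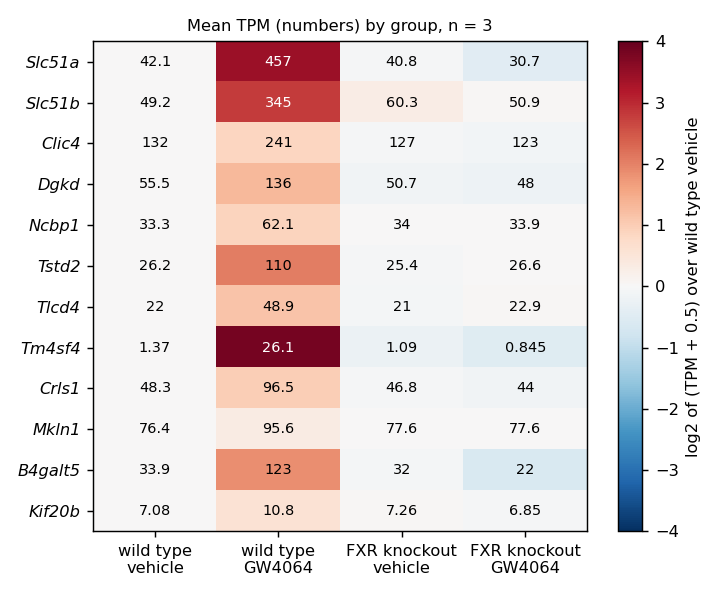
Mean TPM (numbers, n = 3) of Slc51a, Slc51b and the 10 genes most alike in pattern, by group, shaded by log2 of (TPM + 0.5) over wild type on vehicle. The wild-type GW4064 column is the darkest in each line, from 457 TPM for Slc51a to 10.8 TPM for Kif20b.

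The other carriers of bile acids, steroids and organic anions numbered 23 listed and 19 tested. In wild type 1 of 19 rose and 1 fell with GW4064, where 2.48% of all genes rose and 2.32% fell. Their median log2 change was -0.04, and that of all genes was -0.03. Slc10a2, the apical uptake carrier, measured 35.6, 39.0 and 42.0 TPM on vehicle and 40.3, 45.1 and 37.4 TPM with GW4064 in wild type. The groups overlapped, with a log2 difference of 0.07 ± 0.22 (limma, adjusted p = 0.903), so the entry carrier was close in level to Slc51a on vehicle and far below it with GW4064.

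Slc10a2 in the knockout measured 35.7, 16.9 and 36.2 TPM on vehicle and 25.3, 24.4 and 28.0 TPM with GW4064, and was not called (adjusted p = 0.905). Abcc4, another exporter of bile acids and conjugates, fell in wild type from 56.6 ± 4.32 TPM on vehicle to 35.3 ± 3.77 TPM with the agonist (-0.68 ± 0.12, limma, adjusted p = 0.00671). Its values were 50.1 ± 1.93 and 69.1 ± 12.4 TPM in the knockout, and the response differed between the genotypes by 1.12 ± 0.17 (adjusted p = 0.00492). That is the opposite sign to the pair. Abcc2, an apical exporter of conjugates, rose from 399 ± 12.4 to 597 ± 103 TPM (0.56 ± 0.12, adjusted p = 0.021), a call lost without any 1 of 5 wild-type libraries (all but GW4064 replicate 3), with adjusted p up to 0.0949. In the knockout Abcc2 was at 405 ± 29.9 and 501 ± 68.8 TPM (0.30 ± 0.12, adjusted p = 0.390), and its response did not differ between the genotypes by the test (-0.26 ± 0.17, adjusted p = 0.438).

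Fabp6, the cytosolic bile acid binder of the ileum, did not pass the filter. With GW4064 in wild type it was listed at 0.483, 0 and 0.763 TPM, and it was at 0 in the other 9. In the knockout 0 of the 19 carriers were called for GW4064 (limma, 4 at an unadjusted p under 0.05), against 0.0138% and 10.8% of all genes.

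Among 15 nuclear receptors and partners, 12 were tested; 1 rose and 2 fell in wild type with GW4064, against 2.48% of all genes higher and 2.32% lower, with a median of -0.07. Nr1i2, the xenobiotic receptor PXR, rose from 7.90, 8.01 and 7.84 TPM to 26.1, 27.2 and 19.4 TPM (1.54 ± 0.13, limma, adjusted p = 4.9e-05). In the knockout it was at 12.7 ± 1.58 and 13.3 ± 1.39 TPM. Its response differed between genotypes by -1.47 ± 0.18 (adjusted p = 0.0017), with the sign of the pair and a smaller size. Unlike the pair, Nr1i2 was called higher in the knockout on vehicle (0.64 ± 0.13, limma, adjusted p = 0.00945). Vdr, the vitamin D receptor, fell from 135 ± 11.5 to 86.7 ± 6.48 TPM (-0.63 ± 0.11, adjusted p = 0.00682). Ppara fell by 0.42 on the log2 scale (adjusted p = 0.0104, and 0.0514 with no filter on low values). The difference in response between genotypes was not called for Vdr (0.53 ± 0.16, limma, adjusted p = 0.0964) or Ppara (0.31 ± 0.11, adjusted p = 0.168). Nr0b2, the repressor SHP and a classical FXR target in liver, stayed between 1.30 and 3.61 TPM and was not called in wild type (0.38 ± 0.21, adjusted p = 0.364). In the knockout 0 of 12 were called (limma, 1 at an unadjusted p under 0.05), against 0.0138% and 10.8% of all genes.

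Of 12 genes of bile acid synthesis and conjugation 9 were tested, and 2 rose and 3 fell with GW4064 in wild type, against 2.48% of all genes higher and 2.32% lower, with a median of -0.05. Amacr rose from 156 ± 16.6 to 278 ± 18.3 TPM (0.84 ± 0.09, limma, adjusted p = 3.4e-04), and Akr1d1 from 35.1 ± 2.04 to 57.6 ± 3.85 TPM (0.71 ± 0.10, adjusted p = 0.00168). Acox2 fell from 141 ± 1.93 to 89.7 ± 0.594 TPM (-0.66 ± 0.09, adjusted p = 9.9e-04). The calls of Cyp27a1 (-0.33 ± 0.08, adjusted p = 0.0357) and Slc27a2 (-0.21 ± 0.05, adjusted p = 0.0454) were each lost without any 1 of the 6 wild-type libraries, and that of Slc27a2 also without any 1 of the knockout vehicle libraries. Cyp7a1, the rate-limiting enzyme of the classical pathway, was listed at 0 in every library. In the knockout 0 of 9 were called (limma, 1 at an unadjusted p under 0.05), against 0.0138% and 10.8% of all genes.

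Enzymes that make or break down steroids, steroid sulfates and prostaglandin E2, further substrates of the transporter, numbered 18 listed and 15 tested. In wild type 0 of 15 were called for GW4064 (limma, 5 at an unadjusted p under 0.05), with a median of -0.05, where 4.8% of all genes were called and 19.3% had an unadjusted p under 0.05. In the knockout 0 of 15 were called (limma, 4 at an unadjusted p under 0.05), with a median of 0.11, against 0.0138% and 10.8% of all genes. The response of Ptges differed between the genotypes by 0.63 ± 0.11 (limma, adjusted p = 0.014).

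Between the genotypes some carriers were called, though neither subunit was on vehicle. On vehicle, 3 of 19 carriers were higher in the knockout and 0 lower, where 3.19% of all genes were called higher and 9.73% lower. Abcg2, an apical efflux pump, was called with each library left out (0.19 ± 0.04, limma, adjusted p = 0.0104). Slco1a6 was not called without knockout vehicle replicate 1 (adjusted p = 0.0603), and Slc10a6 without any 1 of the knockout vehicle libraries, wild-type vehicle replicate 1 or 3 or wild-type GW4064 replicate 1 (adjusted p up to 0.107). Under GW4064, 4 carriers were higher (Abcc3, Abcc4, Abcg2 and Abcb1b) and 2 lower (Slco3a1 and Slc22a7), where 7.08% of genes were called higher and 11.4% lower. Those of Abcc4, Abcg2 and Abcb1b held with each library left out. The call of Abcc3 was lost without wild-type GW4064 replicate 2 or knockout GW4064 replicate 1 or 3 (adjusted p up to 0.0663), that of Slco3a1 without replicate 1, 2 or 3 of the wild-type agonist group (up to 0.0952), and that of Slc22a7 without replicate 2 or 3 of either GW4064 group (up to 0.0916).

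Over all genes 3.19% were higher and 9.73% lower in the knockout on vehicle, and 7.08% higher and 11.4% lower under GW4064. Of the other lists, the 12 receptors had 2 higher and 2 lower on vehicle, and 3 higher and 2 lower under GW4064. The 9 synthesis genes had 2 higher and 5 lower on vehicle, and 3 higher and 3 lower under GW4064, and the 15 steroid and prostaglandin enzymes had 1 higher and 2 lower, and 4 higher and 2 lower. Amacr and Akr1d1 were lower in the knockout in both states, by -0.53 and -0.60 on vehicle and by -1.48 and -1.40 under GW4064 on the log2 scale, and kept these calls with each library left out. For Slc51a and Slc51b the differences on vehicle, -0.05 and 0.30, were not called.

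Summed markers of tubule cells spanned a narrower range than the pair. The summed TPM of 12 proximal tubule markers, all tested, was 61856 to 62352 in wild type on vehicle and 69815 to 75037 with GW4064, and 66623 to 78690 and 67540 to 73521 in the knockout groups. Most of that sum was Kap, an androgen-regulated gene, at 47901 to 48358 TPM in wild type on vehicle and 56104 to 61185 TPM with GW4064. The other 11 summed to 13814 to 13995 and 13692 to 13852 TPM in wild type, and to 13835 to 14698 and 12524 to 13896 TPM in the knockout. With GW4064 in wild type 1 of the 12 was called higher and 1 lower, where 2.48% and 2.32% of genes were. They were Cubn (0.22 ± 0.04, limma, adjusted p = 0.0148; 0.0552 without vehicle replicate 1 and 0.074 without GW4064 replicate 1) and Slc27a2. Between the genotypes under GW4064 the same list had 2 higher and 6 lower in the knockout, where 7.08% and 11.4% of genes were. Slc13a3 and Slc27a2 were the higher ones, and Lrp2, Cubn, Slc34a1, Slc7a13, Aqp1 and Acsm2 the lower ones. The summed TPM of 8 collecting duct markers was 576 to 629 and 451 to 517 in wild type, and 478 to 494 and 415 to 493 in the knockout. With GW4064 in wild type Aqp2 was called lower and 0 higher, where 2.32% and 2.48% of genes were. On vehicle Aqp2, Aqp3 and Slc4a1 were lower in the knockout and 0 higher, where 9.73% and 3.19% were. Under GW4064 Aqp3 was lower and Aqp4 higher in the knockout, where 11.4% and 7.08% were. The 6 markers of thick ascending limb and distal tubule summed to 5248 to 6021 TPM, with 0 called in any comparison. Of other tissues in which the pair is abundant, 8 small intestine markers summed to 27.8 to 31.6 TPM in wild type and 10.1 to 15.6 TPM in the knockout. Only Apoa4 of these passed the filter, and Fabp2, Alpi, Sis, Cdx1 and Cdx2 were listed at 0 in every library. The 8 adrenal cortex markers summed to 1.70 to 2.65 TPM over all libraries, with Cyp11b1 and Cyp11b2 at 0. Summed liver markers (8 listed, 5 tested) were 706 to 780 TPM in wild type on vehicle and 912 to 945 TPM with GW4064. In the knockout they were 689 to 1217 TPM. Most of that sum was Cyp2e1, at 549 ± 57.2 TPM in wild type on vehicle and 766 ± 20.7 TPM with GW4064. The means of Alb, Apoa2, Serpina1a and Ttr were lower with GW4064 in wild type. In that comparison 0 of the 5 were called, with a median log2 change of -0.22, where 4.8% of genes were called. Fat markers (8 listed, 6 tested) summed to 163 to 328 TPM, of which Fabp4 was 146 to 260 TPM. Urothelial markers (7 listed, 4 tested) summed to 19.6 to 22.6 TPM on vehicle and 11.3 to 13.2 TPM with GW4064 in wild type. In the knockout the urothelial sum was 8.30 to 27.9 TPM. The part of these shifts in the levels of Slc51a and Slc51b was not tested.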

How the data were processed

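Kidney RNA of 12 mouse libraries was sequenced after a stranded kit for total RNA, per the labels' protocols. The submitters' processing notes name HISAT2, StringTie and Cufflinks with the build mm10. Tool versions, tool roles and the gene annotation are not given in these notes. The authors deposited 1 gene table per library with TPM, which is per gene length and scaled to a fixed total. The deposited FPKM was used as an alternative, and the deposited coverage signal for depth. No read counts were used. Entries of 1 identifier were summed, and each subunit had 1 entry per library. Of 24532 identifiers, 24462 had a RefSeq symbol.

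TPM was transformed as log2(TPM + 0.5), which understates changes of low genes. The 14488 genes that reached 1 TPM in 3 or more samples were fitted in limma 3.58.1 (R 4.3.3), with 1 mean per group over all 12 libraries and moderated variances with a trend. P-values were adjusted by Benjamini-Hochberg over all genes of a comparison and called under 0.05. The ratio was tested without a pseudocount by exact permutation in Python 3.11.15 with scipy 1.17.1. The limma fit and the permutation test of the ratio over 4 groups were tested on simulated data.

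The members and gene lists were chosen with earlier results of these data known. Genes named are the pair, the 3 nearest tested neighbours per side, the 10 genes most alike in pattern (mean of at least 5 TPM, no gene models) and list members that were called or at low values. Hbb-b1 and Fabp6 were singled out after their values were seen. Promoter sequences are RefSeq's (GRCm38.p6). Alternatives covered the pseudocount, the filter, the scaling, FPKM, the variance model, sample weights, the samples fitted, a block and each library left out. No sample was left out.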

Additional observations from a re-analysis of the deposited data

Results flagged for a closer look

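The response to GW4064 was compared between the genotypes by the interaction term of limma. It differed for 20 genes among the pair, its neighbours, the genes most alike in pattern and the lists. Of all genes 3.19% were called. The genes most alike were chosen for a step in wild type with GW4064, and Zdhhc19 passed the filter only through that group. The count of 20 therefore cannot be read against that share. Values are knockout minus wild type in log2 response, with Benjamini-Hochberg adjusted p over 14488 genes. For the pair they were -3.83 ± 0.17 (SE) for Slc51a (adjusted p = 1.3e-06) and -3.05 ± 0.18 for Slc51b (adjusted p = 1.0e-05). For Zdhhc19, beside Slc51a, the value was -3.73 ± 0.35, and the gene would not pass the filter without any 1 wild-type GW4064 library.

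For the genes most alike in pattern, whose choice by that pattern fixes the direction, the values were -0.92 for Clic4, -1.36 for Dgkd, -0.90 for Ncbp1, -1.99 for Tstd2, -1.01 for Tlcd4, -4.01 for Tm4sf4, -1.08 for Crls1, -0.32 for Mkln1, -2.39 for B4galt5 and -0.66 for Kif20b. Of the listed genes, Nr1i2 (-1.47), Amacr (-0.95) and Akr1d1 (-0.79) had the sign of the pair. Abcc4 (1.12), Ptges (0.63), Acox2 (0.62) and Abcc1 (0.42) had the opposite sign. The call for Abcc1 (adjusted p = 0.0463) was lost when any 1 of 10 libraries was left out (all but wild-type GW4064 replicate 3 and knockout GW4064 replicate 2), with adjusted p up to 0.115, and under 6 of 10 other settings (no filter on low values, median-of-ratios scaling, quantile scaling, no variance trend, the replicate block and FPKM), with adjusted p up to 0.0887. That for Acox2 (adjusted p = 0.0192) was lost without wild-type GW4064 replicate 1 or knockout vehicle replicate 1, with adjusted p up to 0.0552, and with no filter on low values, at 0.0756, and that for Akr1d1 with no filter on low values, at an adjusted p of 0.0538.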

How the results depend on the processing

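The calls of Slc51a and Slc51b in wild type, between genotypes under GW4064 and in the interaction kept their side of the threshold under every alternative run. Leaving out 1 library gave 3.33 to 3.53 for Slc51a and 2.72 to 2.90 for Slc51b in wild type, and the other settings 3.41 to 3.46 and 2.78 to 2.83. In the knockout neither was called, with adjusted p from 0.218 to 0.510 for Slc51a and from 0.210 to 0.805 for Slc51b. The difference of Slc51a between genotypes on vehicle (-0.05) reversed to 0.0366 with median-of-ratios scaling and 0.0213 with quantile scaling, and ran from -0.148 to 0.0694 when 1 library was left out. The ratio difference for GW4064 in the knockout ran from -0.271 to 0.0147, and p over the 4 groups from 6.5e-04 to 0.00331; the causes were not tested.

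Counts of genes called ran, with 1 library left out, from 334 to 768 for GW4064 in wild type (696 with all), 0 to 51 in the knockout (2), 926 to 1903 between genotypes on vehicle (1872), 1726 to 2760 under GW4064 (2677) and 216 to 535 for the interaction (462). With no filter on low values they were 432 in wild type, 6 in the knockout and 250 for the interaction. In the knockout the count was 1 with median-of-ratios scaling, quantile scaling, sample weights or a pseudocount of 0.1, and 0 with no variance trend or only the groups compared. Median-of-ratios scaling split the calls into 454 higher and 236 lower in wild type (360 and 336), 833 and 539 between genotypes on vehicle (462 and 1410), 1250 and 1310 under GW4064 (1026 and 1651) and 141 and 345 for the interaction (213 and 249). Quantile scaling gave 674 and 591 on vehicle, 1306 and 1321 under GW4064 and 161 and 276 for the interaction.

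Replicate numbers were checked for pairing. Over 18 same-numbered pairs of libraries in different groups the correlation of deviations from group means ran from -0.075 to 0.083. Identifiers with several entries numbered 113 to 120 in the libraries of replicate 2, and 126 to 142 in those of replicates 1 and 3. Whether libraries of the same number share a batch was not tested. With the replicate number as a block no call of Slc51a or Slc51b changed, and the counts were 675 in wild type, 0 in the knockout, 1785 on vehicle, 2633 under GW4064 and 442 for the interaction. Depth in reads is unknown, so no counting intervals are given.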
